A study of Mus musculus with 20 samples.

Results

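The histone variant H3.3 was mapped in wild-type (WT) mouse embryonic fibroblasts (MEFs) with a Flag tag and with an HA tag, and the regions called with each tag were set against each other. All called regions on chromosomes 1 to 19 and X of both WT libraries were taken, 28212 for Flag and 6729 for HA, together 34941 of the 120433 regions in the 12 ChIP lists of the series. On Y, 1 Flag and 1 HA region were left out. The series compares WT MEFs with knockout (KO) MEFs that lack PML, the protein that builds PML nuclear bodies, by ChIP-seq of H3, H3.3, H3K9me3, H3K27me3 and PML and by RNA-seq. Both WT groups were C57BL/6 MEFs at passage 10 to 15, proliferating and untreated, and nucleofected with a plasmid for H3.3-Flag or for H3.3-HA. Tagged H3.3 was thus added to the cells' own H3.3, and the chromatin was precipitated with anti-Flag or with anti-HA antibody. The protocol text allows siRNA in some transfections, and no label names one for these libraries. RNA came from native, untransfected WT MEFs, as 1 table in which the authors pooled 3 numbered replicates and 1 table of an unnumbered sample. The labels do not say from how many embryos the cultures came. Each tag had 1 library, so no difference between tags has a replicate check and no p-value was computed. Nothing in the sources used here gives the number of reads, so both libraries are of unknown depth.

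H3.3 differs from the replication-coupled H3 proteins in that it is placed into chromatin throughout the cell cycle, where nucleosomes are lost or exchanged. The HIRA complex is known to place it at active and poised promoters, gene bodies and regulatory elements, and ATRX with DAXX to place it at heterochromatin, repeats and telomeres. DAXX is also a resident of PML bodies. Epitope tags such as Flag and HA are used because H3.3 differs from canonical H3 at only a few residues, which makes it hard to tell apart with an antibody.

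The promoters of 5 genes show the kinds of start that the tags covered. Each runs from 250 bases before to 50 bases after the start that RefSeq gives on GRCm38.p6, the assembly of mm10, and is written 5′ to 3′ on the gene's own strand. The first 3 belong to the genes of highest RNA level in WT with both tags, with Flag only and with HA only over the gene body, with every CG in capitals.
Rpl41, both tags, chr10:128549119-128549418: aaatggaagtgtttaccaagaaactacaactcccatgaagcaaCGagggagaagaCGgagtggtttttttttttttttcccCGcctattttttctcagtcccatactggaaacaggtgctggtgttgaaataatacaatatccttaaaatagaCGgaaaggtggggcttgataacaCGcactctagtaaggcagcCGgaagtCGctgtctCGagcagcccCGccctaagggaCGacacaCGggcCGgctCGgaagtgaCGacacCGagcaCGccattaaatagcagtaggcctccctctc
Rplp2, Flag only, chr7:141447401-141447700: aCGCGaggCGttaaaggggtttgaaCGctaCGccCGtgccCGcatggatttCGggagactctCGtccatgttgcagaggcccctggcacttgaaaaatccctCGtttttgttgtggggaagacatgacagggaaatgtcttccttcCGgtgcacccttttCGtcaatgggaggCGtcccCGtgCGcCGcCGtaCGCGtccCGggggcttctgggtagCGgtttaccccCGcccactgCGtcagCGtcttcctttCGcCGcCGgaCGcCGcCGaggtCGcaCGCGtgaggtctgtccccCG
Myl9, HA only, chr2:156775214-156775513: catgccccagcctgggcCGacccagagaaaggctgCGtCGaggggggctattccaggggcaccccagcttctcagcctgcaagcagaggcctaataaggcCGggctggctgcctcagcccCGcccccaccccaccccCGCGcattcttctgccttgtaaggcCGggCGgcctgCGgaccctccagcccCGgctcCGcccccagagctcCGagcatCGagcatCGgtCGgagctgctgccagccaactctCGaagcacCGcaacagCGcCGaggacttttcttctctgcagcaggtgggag
The other 2 belong to interferon-stimulated genes that lie in Flag regions of high signal although their RNA was low in the pooled table. Here the capitals mark the motif TTTCNNTTTC, the core of the element through which interferon is known to act on such genes.
Ifit1, chr19:34640639-34640938: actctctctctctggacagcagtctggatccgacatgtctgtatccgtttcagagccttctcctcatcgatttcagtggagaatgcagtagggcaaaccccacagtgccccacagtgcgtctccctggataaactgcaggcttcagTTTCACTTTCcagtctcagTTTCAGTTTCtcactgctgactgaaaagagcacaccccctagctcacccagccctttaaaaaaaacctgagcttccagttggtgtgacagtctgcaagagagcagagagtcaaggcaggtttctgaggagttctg
Rsad2, chr12:26456403-26456702: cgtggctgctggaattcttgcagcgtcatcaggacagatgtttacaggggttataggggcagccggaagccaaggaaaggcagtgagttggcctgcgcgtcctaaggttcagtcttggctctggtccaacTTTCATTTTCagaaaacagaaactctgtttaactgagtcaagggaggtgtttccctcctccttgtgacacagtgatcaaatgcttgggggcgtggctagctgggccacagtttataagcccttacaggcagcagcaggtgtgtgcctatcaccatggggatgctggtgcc

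Almost all HA regions touched a Flag region, while most Flag regions held no HA. Flag regions covered 286 Mb, 10.9% of the analysed chromosomes, and HA regions 73.5 Mb, 2.79%. A region was said to be called with both tags when it shared at least 1 base with a region of the other tag. Of the 28212 Flag regions, 6400 were touched by HA (22.7%, 95% Wilson interval 22.2 to 23.2), and of the 6729 HA regions, 6508 were touched by Flag (96.7%, 96.3 to 97.1). Such intervals take each region as independent of the others and hold counting error alone. Flag had the larger cover, and with Flag regions kept by highest signal only up to the covered length of HA, 43.2% of HA regions were touched by Flag. With all regions, that left 21812 regions called with Flag only and 221 with HA only. By length, 62.6 Mb had both tags, which was 21.9% of the Flag length and 85.1% of the HA length. Another 223.6 Mb had Flag without HA, and 10.9 Mb had HA without Flag.

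The usual arrangement was a shorter HA region inside a longer Flag region. In all, 4945 HA regions (73.5%) lay entirely inside 1 Flag region, and a touched Flag region was covered by HA over a median of 60.9% of its length. Of the touched Flag regions, 493 held 2 or more HA regions, with at most 6 in 1 Flag region. The longest region of all was a Flag region of 521 kb at chr10:12374001-12895000 over Utrn, which encodes utrophin, a protein that ties the actin cytoskeleton to the membrane. HA covered 8.64% of it. At chr19:28242001-28684000 a Flag region of 442 kb lay over Glis3, a zinc finger transcription factor gene, and HA covered 10.9% of it. HA filled more of other long Flag regions, with 73.0% of the 300 kb at chr15:27725001-28025000 over Trio, a gene for a guanine nucleotide exchange factor. It covered 77.8% of 302 kb at chr15:62038001-62340000, where no protein-coding gene lies.

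Flag regions that held HA were longer than those without. Their median length was 11 kb, against 3 kb for regions called with Flag only, and 13.0% against 0.839% were over 50 kb. HA regions had a median length of 5 kb with or without Flag. The share of Flag regions touched by HA climbed with length, and it was 2.87% (2.32 to 3.53) of the 2965 regions of 1 kb, 24.7% (23.5 to 25.9) of those over 5 and up to 10 kb, and 82.0% (79.5 to 84.2) of the 1015 regions over 50 kb. A longer region has more bases at which it can be touched, so length and touch are not independent. HA regions were touched by Flag at 91.6% to 98.0% in every length range.

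**Figure D1:**
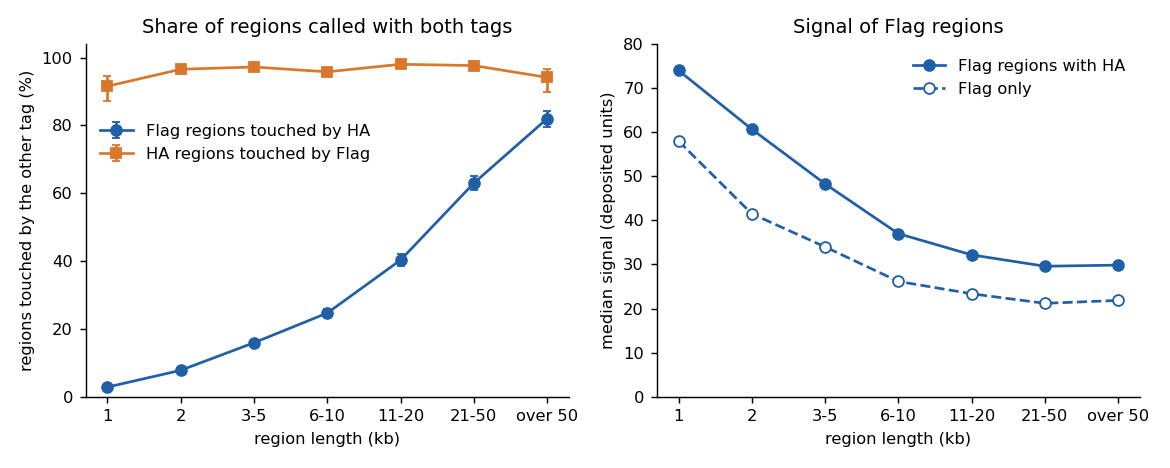
Left, share of Flag and of HA regions touched by the other tag in 7 ranges of region length in kb, with 95% Wilson intervals; right, median deposited signal of Flag regions with HA and of Flag only regions in the same ranges. The Flag share climbs to 82.0% over 50 kb while the HA share stays above 91%, and at each length Flag regions with HA have the higher median signal.

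Within each length range, Flag regions with HA also had the higher signal. The signal is the authors' own value for each region, its scaling is not stated, and it was used only within 1 list or side by side. The product of signal and length in kb was whole for nearly every region outside chromosomes 10 to 19, but for 31.4% of Flag and 31.3% of HA regions on those, so a rank by signal across all chromosomes is less certain. Over all lengths the median was 36.4 in Flag regions with HA and 36.0 in Flag only regions. Within each length range it was higher in the regions with HA, for example 74.0 against 58.0 at 1 kb, 37.0 against 26.2 over 5 and up to 10 kb, and 29.9 against 21.9 over 50 kb. Among Flag regions over 5 and up to 10 kb, 46.0% of the regions in the highest of 4 signal classes were touched by HA, and 7.80% in the lowest. HA regions with Flag had a median signal of 16.0 and HA only regions 13.9. The lowest Flag signal was 12.1, while HA values went down to 0, with 114 HA regions under 3. In 3027 pairs of like extent, the median signal was 43.0 for Flag and 15.5 for HA, given side by side since the scaling of either list is not known. Spearman's rank correlation between the signals of these pairs was 0.49, across regions of 2 single libraries.

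Chromosome X stood apart in the share of Flag regions that HA touched. X held 556 Flag regions over 4.48 Mb and 10 HA regions over 0.067 Mb, a length ratio of 66.9, whereas the ratio lay between 2.81 and 5.58 on the 19 autosomes. HA touched 1.62% of the Flag regions on X (0.854 to 3.05), and 17.5% to 29.5% on each autosome. Flag itself covered 2.62% of X, below the 8.75% to 16.5% of the autosomes. In KO cells, H3.3-Flag covered 5.59 Mb of X and H3.3-HA 4.88 Mb.

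**Figure D2:**
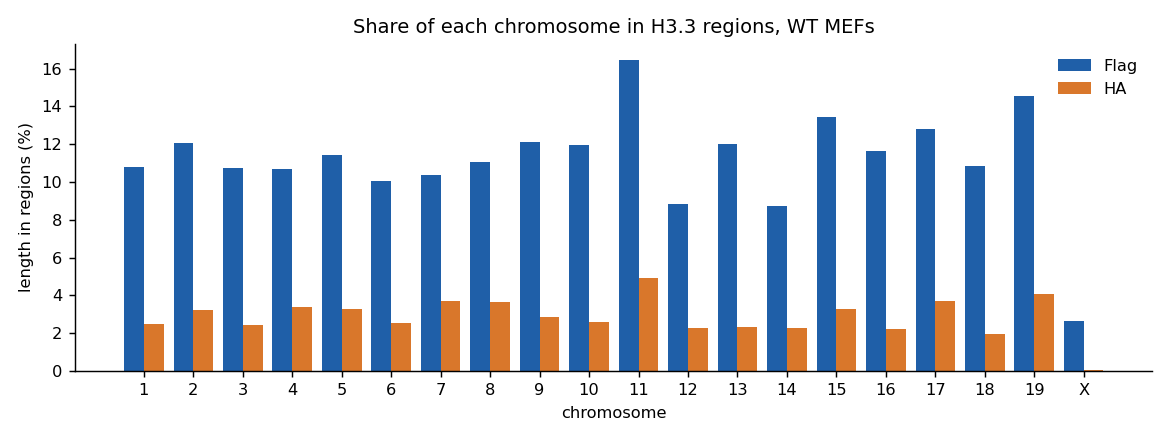
Share of the length of each chromosome that lies in Flag (left bar) and HA (right bar) regions in WT MEFs, 1 library each. Chromosome 11 has the highest share for both tags, with 16.5% for Flag and 4.90% for HA, and X the lowest, with 2.62% and 0.0392%.

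The few HA only regions overlapped PML and H3K9me3 regions by more of their length than the other 3 classes of regions did. The 221 regions covered 2.43 Mb. Of that length, 56.0% was in WT PML regions and 76.8% in H3K9me3 regions, the mark of constitutive heterochromatin, while PML and H3K9me3 regions took up 19.6% and 33.1% of the analysed chromosomes. Flag only regions lay in PML regions over 0.661% of their length and in H3K9me3 over 8.60%. For Flag regions with HA these shares were 0.114% and 7.08%, and for HA regions with Flag 0.378% and 7.56%. H3 regions, which come from ChIP of all H3, covered 59.1% of the HA only length, 9.95% of Flag only, 14.3% of Flag with HA, 21.8% of HA with Flag and 16.5% of the analysed chromosomes. The HA only pattern did not extend to all HA length without Flag. Of those 10.9 Mb, which also hold the ends of HA regions that Flag touched, 13.7% lay in PML and 30.1% in H3K9me3 regions, both below the share of the analysed chromosomes. How far general H3 recovery enters the HA only calls was not tested.

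By number the HA only regions were more mixed than by length. PML regions touched 73 of the 221 (33.0%, 27.2 to 39.5), H3K9me3 regions 110 and H3 regions 110, and 59 touched none of PML, H3K9me3 and H3. The overlap with PML and H3K9me3 rested on the long ones, since the 29 HA only regions over 20 kb were 72.8% in PML and 96.5% in H3K9me3 regions. The 116 of up to 5 kb were 17.96% in PML and 25.7% in H3K9me3. H3K27me3, the Polycomb mark, covered 25.2% of all HA only length, 48.9% of the short regions and 14.8% of those over 20 kb, beside 37.6% of the analysed chromosomes. In an alternative chosen after seeing the data, regions that touch H3 were left out and the classes set anew. The 209 HA only regions of that setting were 22.8% in PML and 41.8% in H3K9me3 by length. PML and H3K9me3 regions took up 19.6% and 33.1% of the analysed chromosomes. Since 110 of the 221 touched H3, the 209 also hold HA regions whose Flag region was left out. They are therefore a different set from the 221.

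**Figure D3:**
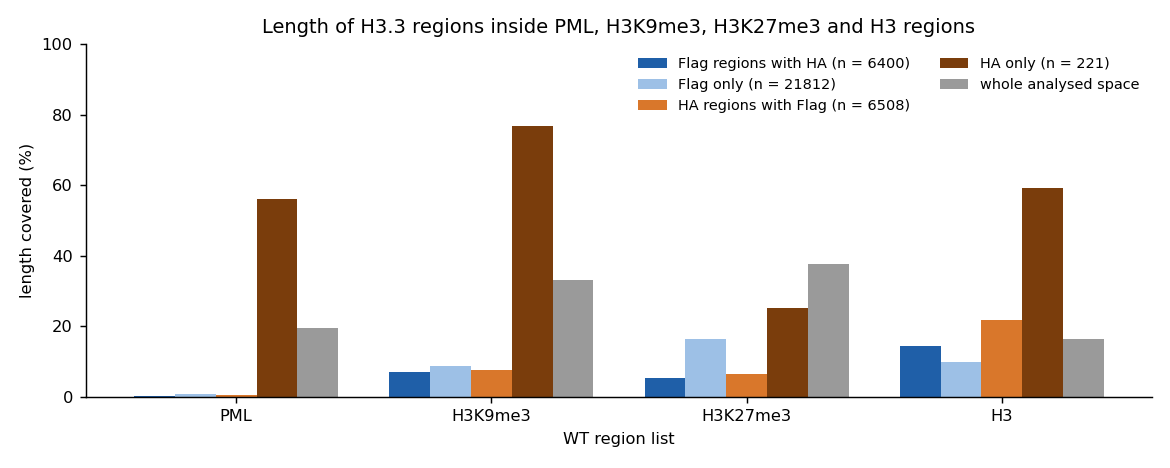
Share of the length of 4 classes of H3.3 regions that lies in PML, H3K9me3, H3K27me3 and H3 regions of WT MEFs, beside the share of the whole analysed space. The HA only bars reach 56.0% for PML, 76.8% for H3K9me3 and 59.1% for H3, while the other 3 classes stay at or below 0.661% for PML.

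Of the 6 longest HA only regions, 4 lay over predicted genes or members of gene families. The other 2, of 87 kb at chr1:84961001-85048000 and 82 kb at chr7:59723001-59805000, held no protein-coding gene. At chr12:88193001-88288000 a region of 95 kb over Gm5662 and at chr12:20223001-20314000 one of 91 kb over Gm32719 and Gm40881 were wholly in PML, H3K9me3 and H3 regions. A region of 72 kb at chr3:92211001-92283000 covered Sprr2a1 and Sprr2a2, genes for proteins of the cornified envelope of skin, and lay wholly in PML regions. One of 85 kb at chr13:100260001-100345000 covered Naip6, of a family of inflammasome sensors, and lay in H3K9me3 and H3K27me3 but not PML regions. Signals in these 4 regions were 5.41, 7.73, 4.94 and 10.1, beside a median of 8.45 in HA regions over 50 kb. The longest HA region of all, 219 kb at chr8:20493001-20712000 with a signal of 4.95, was covered by Flag over 13.7% and wholly in H3K9me3 regions. Near it, an HA region of 170 kb at chr8:19988001-20158000 had a signal of 0.0235. How reads that match several copies were placed is not given in the sources used here, so calls in such families are uncertain.

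Flag regions with both tags were called again in KO cells more often than Flag only regions, while for HA regions with and without Flag the intervals of the shares overlapped. The KO cells, which lack PML, were transfected and sequenced apart, with 1 library per tag, and took no part in forming the classes. H3.3-Flag regions of KO cells touched 95.05% of the Flag regions with HA (94.5 to 95.6) and 67.4% of Flag only regions (66.8 to 68.0). They also touched 95.3% of HA regions with Flag and 23.5% of HA only regions (18.4 to 29.5). The Flag classes differ in length, and a longer region has more bases to be touched. At 1 to 5 kb, KO H3.3-Flag covered 80.8% of the length of Flag regions with HA and 56.1% of Flag only. Over 20 kb it covered 90.3% and 79.1%. H3.3-HA regions of KO cells touched 41.5% of HA regions with Flag (40.3 to 42.7) and 39.8% of HA only regions (33.6 to 46.4), and covered 52.5% of the HA only length, against 14.8% of the analysed chromosomes. Some sites carried strong signal with both tags over a short stretch. At chr3:5860001-5861000 the Flag signal was 280.0, the highest of all, and the HA signal of the 2 kb region over it 66.5. At chr16:57390001-57392000, in Cmss1 and Filip1l, Flag had 174.4 and HA 91.5. KO H3.3-Flag regions covered both of these Flag regions wholly, and KO H3.3-HA regions covered neither. Signal fell with region length, with Spearman's rank correlation of -0.57 for Flag and -0.81 for HA, so short regions rank high.

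Flag regions with HA, of a median of 11 kb, touched genes and gene starts more often than Flag only regions, of a median of 3 kb. A protein-coding gene was touched by 82.9% of Flag regions with HA, 53.7% of Flag only, 83.2% of HA regions with Flag and 66.1% of HA only regions. A gene start lay in 47.8%, 11.5%, 43.5% and 30.8% of these classes in the same order. Such genes span 39.8% of the analysed chromosomes.

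Of the 19817 protein-coding genes measured in both RNA tables, Flag covered at least 0.5 of the body in 21.9% and HA in 8.79%. Both tags did so in 1503 genes (7.58%), Flag only in 2846, HA only in 239 (1.21%) and neither in 15229. RNA was read as FPKM, in which fragment counts are divided by transcript length and by the library's mapped fragments. Its median in the pooled WT table was 29.4 FPKM in genes with both tags, 13.3 with Flag only, 10.6 with HA only and 0.0737 with neither. In the unnumbered table the medians were 24.6, 15.8, 9.52 and 0.477 FPKM. At least 1 FPKM in the pooled table was reached by 88.0% (86.3 to 89.6) of genes with both tags, 87.1% (85.8 to 88.3) with Flag only, 78.2% (72.6 to 83.0) with HA only and 40.5% (39.7 to 41.3) with neither. Genes are not replicates, and these intervals too cover counting error only.

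Both tags followed RNA level, each at its own height. Among the 6532 genes listed at 0 in the pooled table Flag covered 2.97% and HA 1.21%. Among the 970 genes at 100 FPKM or more Flag covered 71.9% and HA 43.3%. Short genes were covered more often, and they also had more RNA, with a median of 21.9 FPKM in the shortest and 7.59 FPKM in the longest of the classes that follow. When expressed genes were split into 4 equal classes by length, in the shortest, up to 10.2 kb, Flag covered at least 0.5 of the body in 55.2% and HA in 33.3%. In the longest, over 53.9 kb, it was 28.8% for Flag and 4.29% for HA. Starts did not follow that order. Of the starts of expressed genes known from the promoter table, Flag held 70.5% and HA 37.6%. In the shortest class of genes these were 69.9% and 40.8%, and in the longest 74.2% and 41.6%.

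Along genes of at least 20 kb, HA was held more closely to the start than Flag. Among 2171 such genes with at least 10 FPKM, 74.5% had the start in a Flag region and 42.1% in an HA region. At 20 kb into the gene 46.8% were still in a Flag region and 14.6% in an HA region, and at 20 kb before the start 19.9% and 6.31%. At the gene end 50.0% were in a Flag region and 18.5% in an HA region. Among the 2359 genes under 0.1 FPKM, 9.71% of starts lay in a Flag region and 3.31% in an HA region.

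**Figure D4:**
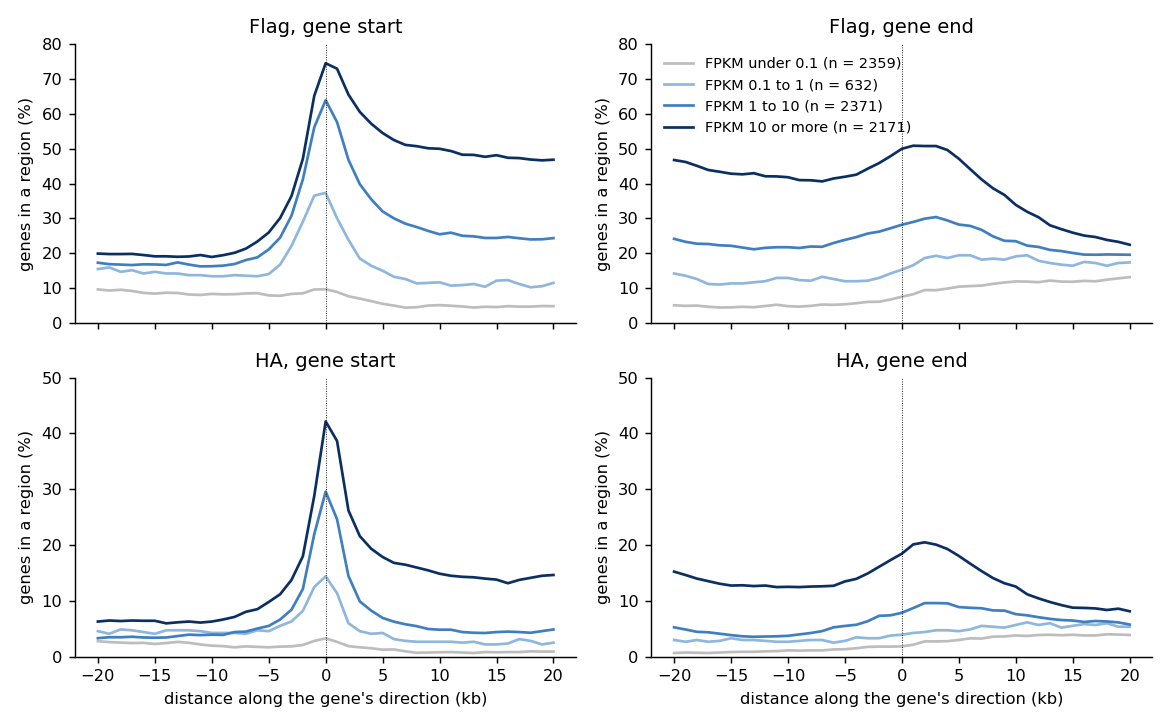
Share of genes of at least 20 kb that lie in a Flag region (top) or an HA region (bottom) at distances of up to 20 kb from the gene's start (left) and end (right), in 4 groups by FPKM in the pooled WT table. The peak at the start is 74.5% for Flag and 42.1% for HA in genes of 10 FPKM or more, and the Flag lines stay higher into the gene; the top and bottom axes differ in scale.

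Promoters of genes with a tag were richer in CpG than those without. The median count of CG in the promoter window was 21 in genes with both tags, 23 with Flag only, 21 with HA only and 11 with neither, and the median GC content was 61.3%, 61.7%, 60.8% and 55.7%. Of the printed promoters, Rpl41 had 16 CG, Rplp2 34, Myl9 20, Ifit1 4 and Rsad2 6.

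Of the 6 genes with both tags and the highest RNA, 5 encode ribosomal proteins. Rpl41 had 39915 FPKM in the pooled table and 3030 in the unnumbered one, and both tags covered all of it, with signals of 41.9 for Flag and 6.00 for HA. Lgals1, for the lectin galectin-1, had 13199 FPKM and both tags over all of its length. Of 73 ribosomal protein genes measured, 49 had both tags, 23 Flag only, 0 HA only and 1 neither. The 1 with neither was Rps4x, on X, with 46.3% of its length in Flag and 0 in HA. Rplp2 at 21961 FPKM and Rps27 at 7153 FPKM were wholly in Flag regions with no HA at all. These genes have many pseudogene copies, which makes their values less certain.

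The gene lists compared here were chosen with earlier results of these data known. Among all 19817 genes, 7.58% had both tags, 14.4% Flag only and 1.21% HA only. Many of all genes have little RNA, whereas several lists hold mostly genes of high RNA level. Among the 970 genes at 100 FPKM or more in the pooled table, Flag covered 71.9% and HA 43.3%. The counts of the lists are to be read beside both sets of shares. Actin and contractile genes had both tags in 21 of 27, with Flag only in 2 (Ankrd1 and Vcl), HA only in 2 (Myl9 and Tpm2) and neither in 2 (Cnn1 and Tln1). Myl6 and Actg1, for a myosin light chain and cytoplasmic actin, led with 8802 and 5491 FPKM and full cover by both tags. Of 20 immediate-early genes, whose transcription starts within minutes of a stimulus, 15 had both tags, 4 Flag only and 1 HA only, and Ier2 led with 150.1 FPKM. The 4 were Fos, Klf4, Nr4a1 and Egr2, with HA over 0 to 46.4% of the body, and the 1 was Egr3, with HA over 69.5% and Flag over 12.9%. Of 17 glycolysis genes 9 had both tags, 2 (Pgk1 and Gpi1) Flag only and 6 neither. Gapdh, Pkm, Ldha and Aldoa each had full cover by both tags. Of 28 neuronal adhesion and synapse genes 0 had either tag over at least 0.5 of the body, and 27 of them had under 1 FPKM. Many of these genes are longer than the longest Flag region, 521 kb, so such cover was hard to reach. Of 16 with a known start, 2 had it in a Flag region and 0 in an HA region. Among all genes of at least 20 kb under 0.1 FPKM, these shares were 9.71% and 3.31%. Of 23 genes for PML bodies and H3.3 chaperones 4 had both tags, among them Daxx, Pml and H3f3b, which encodes H3.3, while 8 had Flag only, 2 (Sp110 and Sp140) HA only and 9 neither. Their starts were covered more often than their bodies. Of 21 with a known start, 18 had it in a Flag region and 16 in an HA region. Of 19 imprinted genes 2 (Igf2r and Nnat) had both tags, 3 (Grb10, Plagl1 and Phlda2) Flag only and 14 neither, and of 24 transcription factor genes of MEFs 6 had both, 6 Flag only, 1 (Twist2) HA only and 11 neither. Where a count of up to 5 is spelled out, the genes were named after their values were seen.

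Matrix genes, the defining output of fibroblasts, had Flag more often than HA, with 21 of 32 against 12. Of the 32, 11 had both, 10 Flag only, 1 (Col4a2) HA only and 10 neither, though all 32 had at least 1 FPKM. Col4a2 had Flag over 47.2% of its body, just under the limit, and both tags at its start. Col1a1 at 3354 FPKM and Thbs1 at 2520 FPKM lay wholly in regions of both tags. For Thbs1, which encodes thrombospondin, the signal was 123.4 with Flag and 20.7 with HA. Timp1, an inhibitor of matrix proteases, and Bgn, the proteoglycan biglycan, had 5017 and 2067 FPKM, full Flag cover and no HA, and both lie on X. Timp1 had 224.9 FPKM in the unnumbered table. Of 307 X genes with at least 1 FPKM, Flag covered 56 (18.2%) and HA 3 (0.977%), while on the autosomes it was 38.0% for Flag and 15.3% for HA, and over all chromosomes 37.4% and 14.9%. The starts of 118 of 276 such X genes lay in a Flag region and 5 in an HA region. Flna, the actin cross-linker filamin A, was among the 3 with HA, beside Rpl10 and Mid1ip1, and HA covered 85.4% of it.

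**Figure D5:**
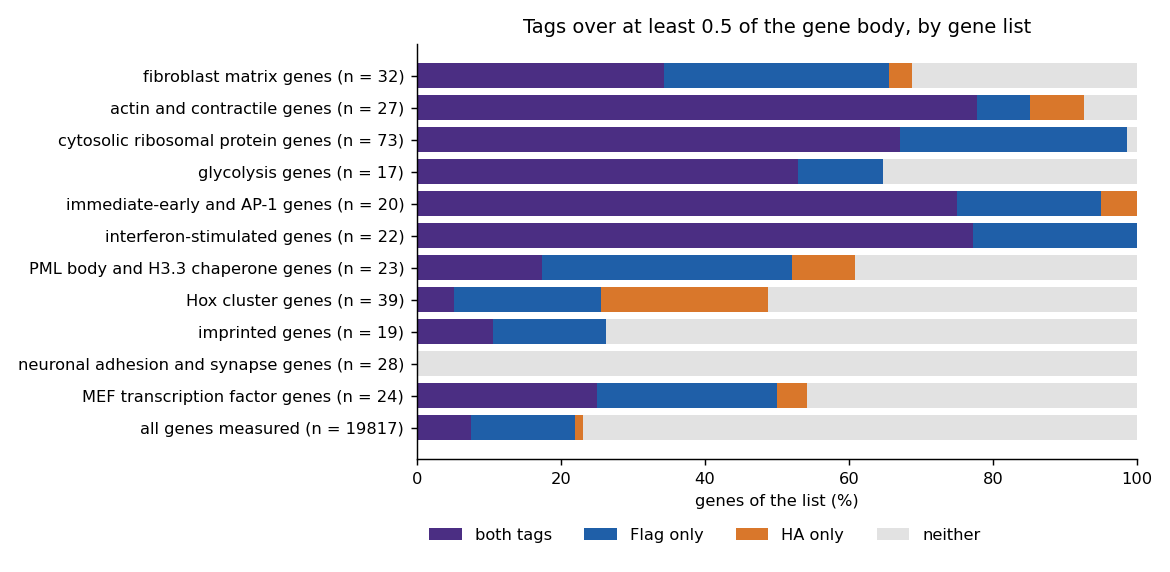
Share of the genes of 11 lists, and of all 19817 genes measured, with both tags, Flag only, HA only or neither over at least 0.5 of the body. Both tags lie over 17 of 22 interferon-stimulated genes and 0 of 28 neuronal genes, and HA only is most frequent among Hox genes, with 9 of 39. Many of the neuronal genes are longer than the longest Flag region.

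Interferon-stimulated genes carried H3.3 of both tags while most had little RNA in the pooled table. All 22 measured were wholly inside Flag regions, 17 had both tags and 5 (Ifit2, Psmb9, Oasl2, Oas1a and Oas2) Flag only. Of these, 13 in the pooled table had under 1 FPKM, and all 13 had Flag and 9 both tags. Among all 9658 genes under 1 FPKM, Flag covered 5.66% and both tags 1.86%. The RNA came from native cells and the ChIP from transfected ones, so the RNA level of the transfected cells is not known. The unnumbered sample had 18 of the 22 at 1 FPKM or more. Its table also held macrophage markers, with 8 of 8 at 1 FPKM or more and a sum of 70.2 FPKM, against 0 of 8 and a sum of 1.06 in the pooled table, where Tyrobp, C1qa and C1qb were listed at 0. Their part in the RNA values was not tested.

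These genes lay in 18 Flag regions of 26 to 184 kb and 18 HA regions of 5 to 97 kb, most of them nested, and 17 of the Flag regions were touched by HA. Median signals were 74.8 for the Flag regions and 16.4 for the HA regions. Ifi35, Bst2, Isg15 and Ifit2 had the most RNA, with 25.3, 18.9, 6.29 and 3.92 FPKM. The genes that follow were named after their values were seen. Among the 1015 Flag regions over 50 kb, whose median signal was 28.7, the highest was 161.8 at chr19:34543001-34667000 over the Ifit genes, which encode antiviral RNA-binding proteins. HA lay over 55.6% of it in separate regions. Within it, Ifit1 had 0.492 FPKM in the pooled table and 4.23 in the unnumbered one. HA lay over 98.8% of the Ifit1 body with a signal of 32.3. Rsad2, which encodes the antiviral enzyme viperin, had 0.0026 FPKM in the pooled table and 0.285 in the unnumbered one. It lay in a Flag region of 69 kb with a signal of 118.9 that also held Cmpk2, and in an HA region of 43 kb with a signal of 18.6. Rnf213, a large ubiquitin ligase gene, was in the Flag region of the next highest signal over 50 kb, 142.5, and in the HA region of the highest signal over 50 kb, 34.2.

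Every one of the 18 Flag regions was covered over at least 0.5 of its length by H3.3-Flag regions of KO cells, and 6 were touched by H3.3-HA regions of KO cells. Of all Flag regions with HA, 89.5% were covered to that extent by KO H3.3-Flag, near the share here, and 42.4% were touched by KO H3.3-HA. H3K27me3 lay over at least 0.5 of 8 of the 18, with all of the Rsad2 region among these, and over as much of 8.73% of all Flag regions with HA. The motif TTTCNNTTTC, or GAAANNGAAA on the other strand, stood in 10 of 19 promoters of the list found in RefSeq and in 3.38% of all 15884, with overlapping matches counted apart. Ifit1 held 2 matches and Rsad2 1, as printed above. A match is a run of letters and does not show that a factor was bound.

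Hox genes, which set position along the body axis, were the list with the most HA only members, 9 of 39, beside 2 (Hoxa2 and Hoxd13) with both tags, 8 with Flag only and 20 with neither. Flag and HA lay on different ends of the Hoxa cluster. At chr6:52154001-52191000 a Flag region of 37 kb with a signal of 39.2 lay over Hoxa2 and part of Hoxa3 and Hoxa4, free of H3K27me3, and HA covered 16.2% of it. At chr6:52212001-52253000 an HA region of 41 kb with a signal of 5.61 lay over Hoxa7, Hoxa9, Hoxa10 and Hoxa11 and touched Hoxa3, with H3K27me3 on 92.7% and Flag on 22.0% of it. In those 4 genes Flag cover was 0 and HA cover complete. Their pooled RNA was 11.6 FPKM for Hoxa7, 0.125 for Hoxa9, 0.140 for Hoxa10 and 0 for Hoxa11. In the unnumbered table Hoxa7 had 5.55 FPKM, Hoxa9 2.55, Hoxa10 12.8 and Hoxa11 4.08. HA only was found in 6 of the 20 Hox genes under 1 FPKM in the pooled table, beside 0.538% of all genes under 1 FPKM. Neighbours among the 6 share an HA region, so they are not independent calls. In the Hoxd cluster an HA region of 27 kb at chr2:74666001-74693000, wholly in H3K27me3, lay over Hoxd10, Hoxd11 and Hoxd12, which had no Flag and 0 FPKM in the pooled table. In the unnumbered table these had 3.71 FPKM for Hoxd10, 2.16 for Hoxd11 and 2.44 for Hoxd12, so all 6 genes counted as under 1 FPKM were above it there. In KO cells Flag regions covered 4.88% of the Hoxa7 to Hoxa11 region and 0% of the Hoxd one, and HA regions likewise covered 4.88% and 0%. The other HA only members were Hoxb7 and Hoxc6. The HA region over Hoxb7 was wholly covered by KO H3.3-Flag and by KO H3.3-HA regions. The one over Hoxc6 was wholly covered by KO H3.3-HA regions and not by KO H3.3-Flag. Of the 5 HA regions at Hox genes, 4 were touched by KO H3.3-HA regions. The 9 HA only Hox genes were named after their values were seen.

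Most HA only genes were not free of Flag. Of the 239, 53 had no Flag at all, and 49 had between 40 and 50% of the body in Flag and so lay just under the limit. Myl9, a myosin light chain gene of smooth muscle and contractile fibroblasts, had the highest RNA among them with 1753 FPKM in the pooled table and 349.8 in the unnumbered one. HA covered it and its start wholly with a signal of 7.04, and Flag cover was 0. Mfge8 at 710.4 FPKM, which encodes a protein that marks dying cells for uptake, had HA over 78.5% and Flag over 19.6%. Anapc13 at 676.5 FPKM, for a subunit of the anaphase-promoting complex, had HA over all of its body and Flag over 49.7%, just outside the limit. Fbln2, for the matrix protein fibulin-2, had HA over all of it and Flag over 15.9%, with its start in regions of both tags.

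Genes with Flag only had a median length of 21.8 kb, near the 18.3 kb of all genes measured, while those with both tags were short, with 7.08 kb. Among 2846 such genes 1409 had no HA at all. The longest Flag only region covered Ascc3, a helicase gene, with 282 kb at chr10:50586001-50868000, a signal of 39.9 and 7.94 FPKM for Ascc3. Zfpm2 and Gfra1, for a cofactor of GATA factors and a neurotrophic factor receptor, lay in Flag only regions of 257 and 234 kb. Dlg1, for a scaffold protein of cell junctions, lay in one of 217 kb and had 34.8 FPKM. KO H3.3-Flag covered 99.3% of the Ascc3 region, 96.6% of the Gfra1 region and 100% of the Dlg1 region, but 7.78% of the Zfpm2 region.

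Of 10 fibroblast markers, 9 had at least 1 FPKM in the pooled table, with a sum of 10654 FPKM, while Thy1 had 0.141. In the unnumbered table all 10 did, with 209.8 FPKM for Thy1. In the pooled table, of 7 epithelial markers 0 reached 1 FPKM. Of the neuronal markers Tubb3 reached 1 FPKM, of the endothelial Kdr, and of the muscle markers Des and Acta1. Spearman's rank correlation between the WT tables, which share no library, was 0.93 over 19817 genes. Of these genes, 6532 were listed at 0 in the pooled table and 5753 in the unnumbered one.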

How the data were processed

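Per the submitters' processing notes the build was mm10, and the tools named are Cuffdiff 2.2.1 and Cufflinks 2.2.1, TopHat2 2.0.8b and Bowtie 1.0.0. What called the regions is not given in the sources used here. Deposited region lists hold a signal and a score per region made by the authors, and those of H3 and PML a score alone. Signal times the number of 1 kb bins was whole (within 0.02) for 100.0% of Flag and 100% of HA regions on chromosomes 1 to 9 and X and for 31.4% of Flag and 31.3% of HA regions on 10 to 19. The deposited RNA tables hold FPKM by the authors, and 267 and 271 lines that name several genes, with repeated names, were left out. No column of single replicates was present.

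Overlaps were computed with Python 3.11.15, numpy 2.4.6, pandas 2.3.3 and scipy 1.17.1 on 1 kb bins, and plots drawn with matplotlib 3.10.9. The overlap code was tested on simulated data. A gene had a tag when at least 0.5 of its body was covered, and was expressed at 1 FPKM. Of 21631 protein-coding RefSeq genes, 19817 were measured in both tables and 15884 had a promoter. Region GC content was not computed, since no genome was used, and promoters stand in its place. Pairs of like extent share at least 0.5 of both regions.

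Named regions are the 6 longest and the 6 of highest signal per class and the 6 longest stretches of 1 tag, from which the text gives a selection. Named genes are the 6 of highest FPKM per class and up to 4 per list, beside others, chiefly interferon-stimulated, Hox and those behind small counts, that were named after their values were seen. The members and lists were chosen with earlier results of these data known.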

Additional observations from a re-analysis of the deposited data

How the results depend on the processing

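No paired analysis was possible because each tag had 1 library and the authors pooled the numbered RNA replicates into 1 table. Leaving out a replicate was not possible for the same reason. Of 120 values under alternatives, 63 stayed within their counting interval or within 1.5 times a count and 57 moved. The cause was not tested. A signal minimum of 1, joining within 5000 bases and chromosomes 1 to 9 and X alone moved none of 4 values each. A signal minimum of 3 moved none of 12. These minimums removed no Flag region, since the lowest Flag signal was 12.1. Leaving out the first 3000000 bases changed no region count, so it could not move a value. Keeping only Flag regions of highest signal up to the covered length of HA, 43.2% of HA regions were touched by Flag and 34.7% of either length was shared. By highest score, an alternative added after seeing the data, 84.1% of Flag and 13.6% of HA regions were touched, with 24.3% of the HA length shared. The Flag regions kept had a median length of 2 kb by signal and 99 kb by score.

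With an overlap of at least 0.5 of the region, 13.8% of Flag and 92.3% of HA regions had the other tag. Median lengths were then 7 kb for Flag with HA, 4 kb for Flag only and 9 kb for HA only, and median signals 42.8, 35.1, 16.6 for HA with Flag and 10.3 for HA only. Called again in KO cells were 89.5% of Flag with HA and 61.6% of Flag only. Leaving out regions that touch H3, also added later, gave 20.7% of Flag and 96.1% of HA regions touched. Median signals were then 37.2 for Flag with HA and 16.0 for HA only. The HA only class, set anew with other members, had 22.8% of its length in PML, 41.8% in H3K9me3 and 16.4% in H3K27me3. On chromosomes 10 to 19 alone 22.1% of Flag regions were touched, median signals were 37.0, 36.7 and 16.0 for Flag with HA, Flag only and HA only, the promoter CpG ratio was 0.786 with both tags and 0.564 with neither, and GC with neither was 56.0%.

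Assigning genes by their start gave 3296 genes with both tags and 8855 with neither. Expressed were then 90.2% with both tags, 80.6% with Flag only, 63.7% with HA only and 26.1% with neither, with median log2(FPKM + 1) of 3.84, 3.08, 2.37 and 0. With the unnumbered sample's values 91.4%, 89.4% and 45.8% were expressed with both tags, Flag only and neither, with medians of 4.68, 4.07 and 0.56. A minimum of 5 FPKM gave 77.9%, 73.4%, 61.5% and 26.8% for the 4 classes, and a minimum of 0.1 gave 93.9%, 91.3%, 86.6% and 49.1%. A pseudocount of 0.1 gave median log2 values of 3.75 with Flag only and -2.53 with neither. Unknown depth limits every comparison of the 2 tags.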
